A study of Mus musculus with 18 samples.

Results

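The 10 circadian clock genes Per1, Per2, Per3, Cry1, Cry2, Arntl, Clock, Nr1d1, Nr1d2 and Dbp were followed by gene symbol through 3 RNA-Seq count tables of mouse liver, to ask how a 4 h exposure to the inflammatory cytokine IL-1β was recorded at the molecular clock by 3 library preparation kits. All 10 were present in each table, out of 21018 genes listed in any of the tables and 16184 shared by the 3. The animals were 6 male C57/B6J mice, 12 weeks old, of which 3 (mice ILB.9579, ILB.9582 and ILB.9583) had been injected intraperitoneally with 20 µg/Kg of IL-1β and 3 (mice UNT.9574, UNT.9575 and UNT.9576) with saline, the prefixes ILB and UNT being those of the labels. The labels name no transgene or deletion, and the liver RNA of every mouse was prepared with each kit, which gave 18 libraries in 6 groups of 3. Pico (SMARTer Stranded Total RNA-Seq v2, ribosomal depletion) started from 1.7 to 2.6 ng of RNA and kept the strand; V4 (SMART-Seq v4 Ultra Low Input, poly(A)) started from 0.8 to 1.3 ng and did not; TruSeq (stranded mRNA, poly(A)) started from 200 ng and did. The clock time at which the livers were taken was not given in the sources used here.

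In the mammalian clock the activators CLOCK and BMAL1 (the product of Arntl) bind E-box elements and switch on the Per and Cry genes, whose proteins return to the nucleus and repress the activators. A second loop runs through the nuclear receptors REV-ERBα (Nr1d1) and REV-ERBβ (Nr1d2), which silence Arntl and other genes with ROR response elements (ROREs), and the PAR bZIP factor DBP carries the rhythm to D-box genes, among them many genes of liver metabolism. In liver these transcripts swing strongly over the day, so their levels depend on when a sample is taken.

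Short promoter sequences of the members are shown so that letters matching the 3 kinds of element above can be read in them directly. Of the 10 genes, 9 had an entry in the RefSeq promoter table (build GRCm38.p6; Per2 had none), covering 250 bases before to 50 after the start of transcription. Each entry matched the mm9 genome, the build of the count tables, exactly and at a single position, and the coordinates given are those of mm9. The letters searched, on both strands, were CACGTG (E-box), CACGTT (E′-box), TTATGTAA or TTACGTAA (D-box) and TAGGTCA (RORE core). Matches are in capitals, and no match overlapped another.
Per3, bases -250 to -1, chr4:150418775-150419024, minus strand: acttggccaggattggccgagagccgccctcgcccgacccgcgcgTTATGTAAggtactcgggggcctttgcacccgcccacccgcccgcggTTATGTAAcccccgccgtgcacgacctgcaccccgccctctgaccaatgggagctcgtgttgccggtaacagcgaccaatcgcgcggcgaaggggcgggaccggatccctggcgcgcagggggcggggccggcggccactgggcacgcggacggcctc
Cry1, bases -250 to -1, chr10:84647800-84648049, minus strand: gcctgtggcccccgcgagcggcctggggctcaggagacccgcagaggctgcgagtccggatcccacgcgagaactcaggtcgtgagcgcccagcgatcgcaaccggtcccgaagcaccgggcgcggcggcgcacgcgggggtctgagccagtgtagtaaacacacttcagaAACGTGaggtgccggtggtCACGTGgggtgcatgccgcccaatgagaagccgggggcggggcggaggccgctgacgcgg
Per1 E-box, bases -166 to -161, in the 30 bases chr11:68912273-68912302, plus strand: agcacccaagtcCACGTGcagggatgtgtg
Cry2 E′-box, bases -166 to -161, in chr2:92274375-92274404, minus strand: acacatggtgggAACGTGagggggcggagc
Nr1d1 E′-box, bases -28 to -23, in chr11:98636702-98636731, minus strand: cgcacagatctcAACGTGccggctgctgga
Arntl RORE core, bases 31 to 37 after the start, in chr7:120351043-120351072, plus strand: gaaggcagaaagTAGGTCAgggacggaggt
The Per3 window held 2 copies of the D-box letters and Cry1 an E-box beside an E′-box. None of these windows overlapped an annotated exon in GENCODE vM1, except that of Arntl, which lay in its first exon; the Per1 window fell in an intron of a longer annotated Per1 transcript. Over all 32851 distinct promoters of the table, 7.15% held the E-box letters, 4.68% the E′-box, 1.06% a D-box and 2.61% the RORE core. Among the 9 members with an entry, 2 held an E-box, 3 an E′-box, 1 a D-box and 1 a RORE core, and the windows of Dbp, Clock and Nr1d2 held none of these letters. Arntl, Clock and Per1 had several entries with different starts, and positions are counted from the start of the entry with the match. A gene was counted if any of its entries held the letters, whereas the shares are per promoter. A match is a description of the sequence and not a measured binding site. A missing match does not show that a gene lacks the element, since only this short window and these exact letters were searched.

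Gene counts were reads that respected the annotated splice junctions, after the authors had resampled the libraries of each kit to a common depth. The totals per library ran from 4024632 to 4134070 counts for Pico, from 12013453 to 12352473 for V4 and from 12348864 to 12858237 for TruSeq. IL-1β was compared with saline within each kit by limma-voom on these totals, with Benjamini-Hochberg adjustment over all genes of the table, and a gene was called at an adjusted p of at most 0.05; p-values rest on 3 mice per treatment. With Pico 6.78% of 18108 genes were called higher and 10.8% lower, with V4 3.60% and 7.41% of 18051, and with TruSeq 12.3% and 21.8% of 19424. The median log2 fold change over all genes was -0.12, -0.22 and -0.17 in Pico, V4 and TruSeq, so small negative values of a clock gene lie at the middle of the table, and TMM scaling moved this median by 0.13, 0.17 and 0.16. The acute-phase genes Saa1, Saa2, Saa3 and Lcn2 were called higher in all 3 kits, from 86.4-fold for Saa1 in Pico to 991-fold for Lcn2 in V4; Socs3 was called in Pico and TruSeq (adjusted p = 0.0552 in V4) and Nfkbia in TruSeq alone (adjusted p = 0.0137).

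Against this background, Per3, Per2 and Dbp fell and Per1 rose after IL-1β, while Arntl had higher mean counts with a call that depended on the kit and the test. Per3 fell about 10-fold in each kit and Dbp 3.82-fold to 5.70-fold, and both were called lower in all 3 kits; 866 of the 16184 genes in all 3 tables (5.35%) were called lower in every kit and 493 (3.05%) higher. Per2 fell 4.44-fold in Pico and 4.90-fold in TruSeq, and its 3.27-fold lower level in V4 did not pass the test. Per1 rose 1.63-fold in Pico and 2.02-fold in TruSeq, and its 1.76-fold higher level in V4 did not pass the test. The Pico call of Per1 did not stand without some of the single mice. In bulk liver, fewer cells of a type and less RNA per cell cannot be told apart. With Pico 1 of the 10 genes was called higher and 3 lower, with V4 1 and 2, and with TruSeq 1 and 4. The shares of all genes called higher and lower were 6.78% and 10.8%, 3.6% and 7.41%, and 12.3% and 21.8% in these kits. The median log2 fold change of the 10 was -0.26 with Pico, -0.22 with V4 and -0.06 with TruSeq, close to that of all genes in V4.

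**Figure D1:**
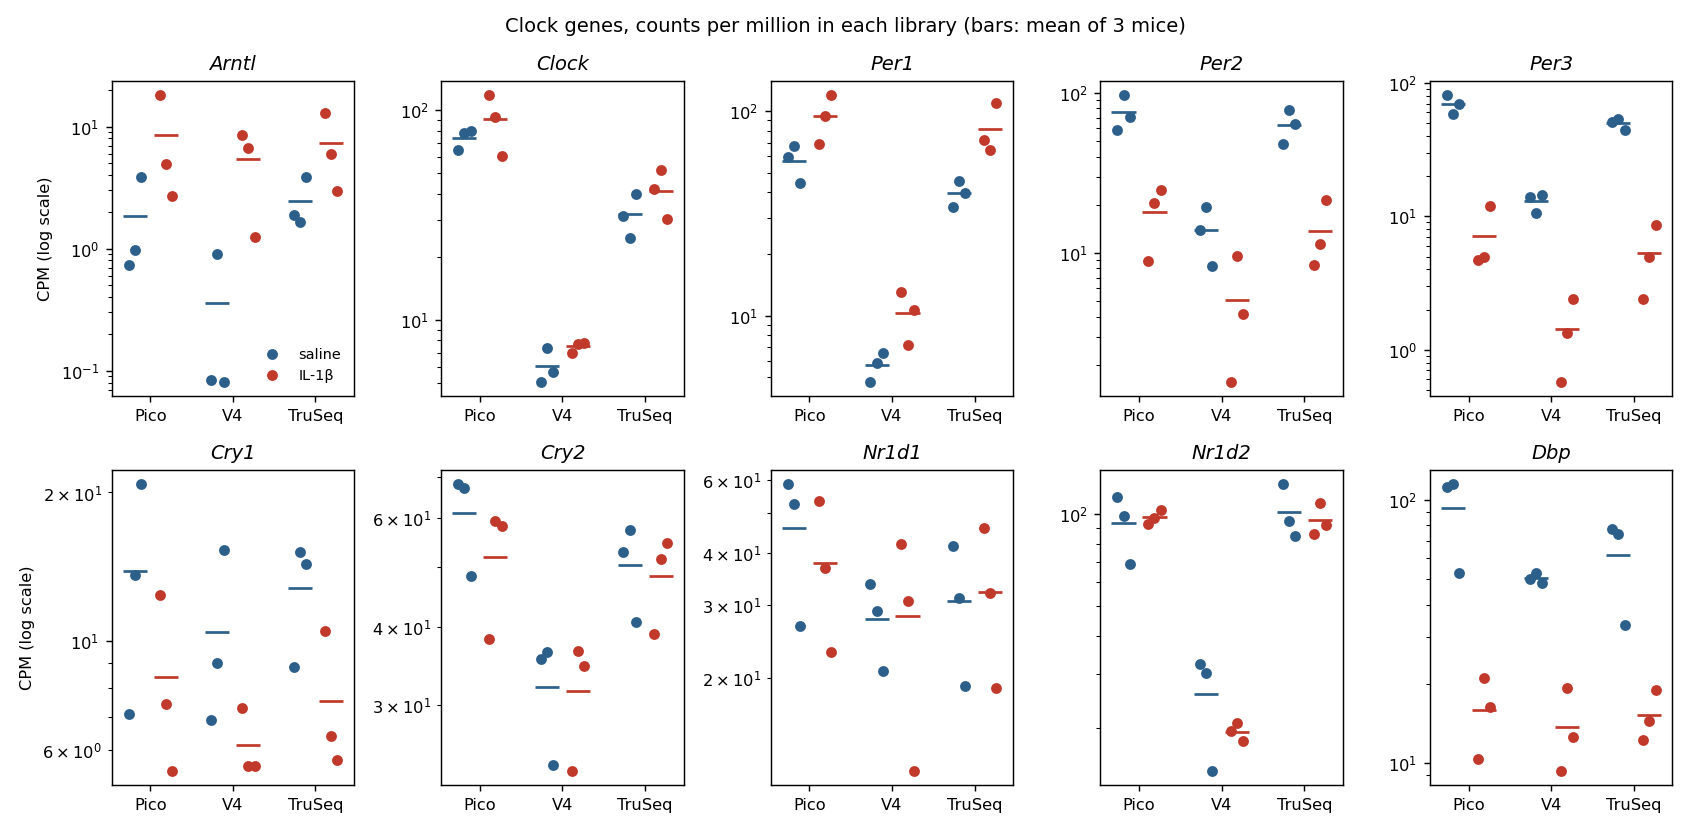
Counts scaled to a common library total (CPM, log axis) of the 10 clock genes in the 18 libraries, by kit on the horizontal axis; blue points are saline mice, red points IL-1β mice and bars the mean of 3. Per3 and Dbp are separated by treatment in every kit, Per1 as well with the IL-1β mice above, whereas Cry2, Nr1d1 and Nr1d2 overlap in every kit.

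**Figure D2:**
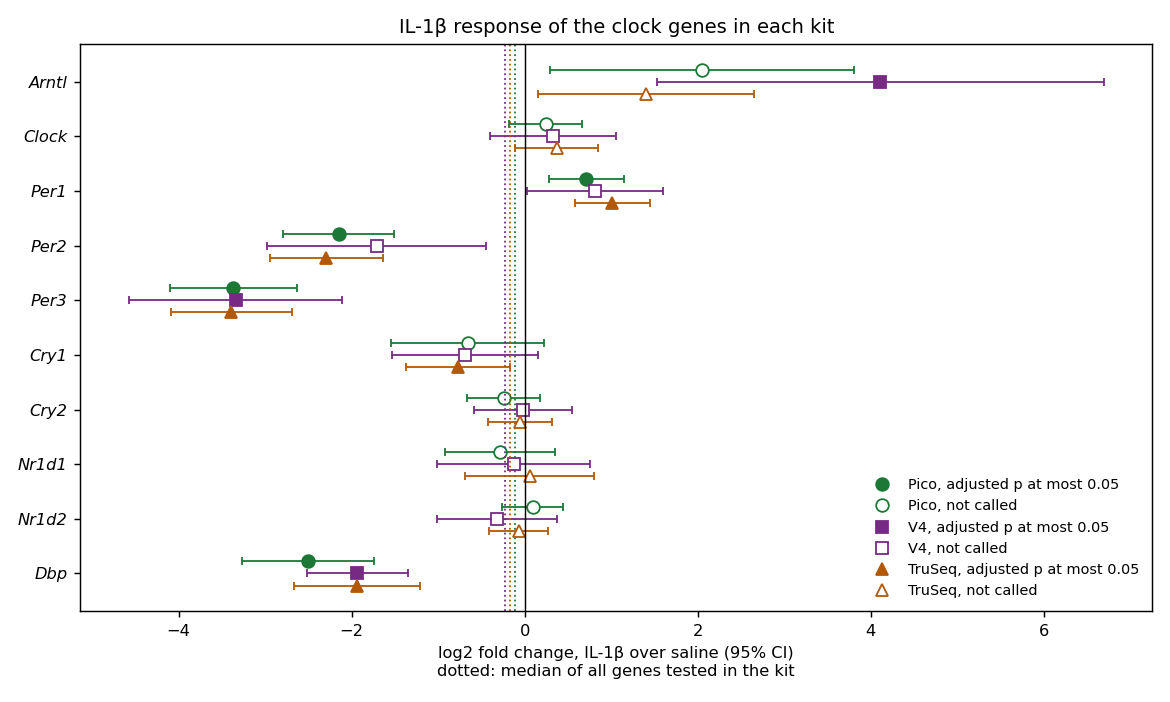
log2 fold change (IL-1β over saline) of each clock gene with its 95% confidence interval in Pico (circles), V4 (squares) and TruSeq (triangles); filled symbols passed an adjusted p of 0.05 and dotted lines mark the median of all genes in each kit. Per3 sits near -3.4 in the 3 kits, and Arntl has the widest intervals.

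The repressor arm of the clock held the largest fall. Per3, a period gene on chromosome 4 (150377761 to 150418774, minus strand), had 329, 239 and 285 counts in saline mice UNT.9574, UNT.9575 and UNT.9576 in Pico and 19, 20 and 48 in IL-1β mice ILB.9579, ILB.9582 and ILB.9583. In TruSeq the same mice gave 647, 686 and 570 counts for saline and 30, 61 and 106 for IL-1β. In V4 they gave 168, 127 and 178 against 7, 16 and 29. Every IL-1β library lay far below every saline library of its kit. The log2 fold change of Per3 was -3.37 ± 0.34 (SE) with Pico, -3.34 ± 0.56 with V4 and -3.39 ± 0.31 with TruSeq, at limma-voom adjusted p of 3.9e-06, 0.0039 and 4.8e-05. Per3 is the gene whose promoter window carries the 2 D-box matches printed above, and a link of these matches to its fall was not tested. The promoter of Timeless, from the core loop list below, also held the D-box letters. Timeless was not called in any kit, with log2 fold changes of -0.45, -0.50 and -0.51 in Pico, V4 and TruSeq. It had few reads, at 21 to 33 counts in IL-1β and 36 to 47 in saline mice in TruSeq. A link of the letters to these values was not tested either.

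Per2, the period gene on chromosome 1 (93312561 to 93355907, minus strand), had 241, 398 and 293 counts in saline mice UNT.9574, UNT.9575 and UNT.9576 and 36, 83 and 100 in IL-1β mice ILB.9579, ILB.9582 and ILB.9583 in Pico. The TruSeq counts of Per2 were 606, 1000 and 822 against 104, 140 and 264. In V4 the saline mice gave 167, 235 and 103 counts and the IL-1β mice 19, 116 and 50. The treatments did not overlap in Pico and TruSeq, and in V4 IL-1β mouse ILB.9582 lay above saline mouse UNT.9576. The log2 fold change of Per2 was -2.15 ± 0.30 (SE) in Pico (adjusted p = 9.5e-05, limma-voom), -2.29 ± 0.29 in TruSeq (adjusted p = 0.00032) and -1.71 ± 0.57 in V4 (adjusted p = 0.084). The interval of the V4 value, -2.98 to -0.45, contained the values of the other kits.

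Per1, which is known as the period gene that responds fastest to acute signals, went the other way. In Pico it had 244, 278 and 183 counts in saline mice UNT.9574, UNT.9575 and UNT.9576 and 279, 382 and 482 in IL-1β mice ILB.9579, ILB.9582 and ILB.9583. TruSeq gave 430, 581 and 514 counts of Per1 for saline and 897, 798 and 1351 for IL-1β. V4 gave 57, 71 and 81 against 159, 87 and 128. The IL-1β libraries stood above the saline libraries in each kit, by CPM, although the nearest pair in Pico was only 278 against 279 counts. Per1 (chromosome 11, 68908719 to 68923462, plus strand) was called higher in Pico (log2 fold change 0.71 ± 0.20 SE, adjusted p = 0.023, limma-voom) and TruSeq (1.01 ± 0.19, adjusted p = 0.0029), and not in V4 (0.81 ± 0.36, adjusted p = 0.19), where DESeq2 called it (log2 fold change 1.02, adjusted p = 0.0470). The Pico call was lost when mouse ILB.9582, ILB.9583, UNT.9574 or UNT.9576 was left out (adjusted p from 0.106 to 0.164), whereas the TruSeq call stood without any of the 6 mice.

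Neither cryptochrome, the partners of the period proteins in repression, moved as much. Cry1 (chromosome 10, 84594447 to 84647799, minus strand) had 29, 56 and 86 counts in the saline mice of Pico and 50, 30 and 22 in the IL-1β mice, in the mouse order used above. In V4 the Cry1 counts were 83, 109 and 189 against 89, 67 and 67, and in TruSeq 112, 194 and 184 against 130, 79 and 71. The treatments overlapped in each kit, through saline mouse UNT.9574 and IL-1β mouse ILB.9579. The log2 fold change of Cry1 was -0.66 ± 0.42 (SE) with Pico, -0.69 ± 0.38 with V4 and -0.77 ± 0.27 with TruSeq, and the TruSeq value passed the test narrowly (adjusted p = 0.0497, limma-voom). With TMM scaling that adjusted p was 0.113, and it was 0.191, 0.206, 0.188 and 0.187 without mouse ILB.9582, ILB.9583, UNT.9575 and UNT.9576. Cry2 (chromosome 2, 92243803 to 92274200, minus strand) ranged from 155 to 278 counts with Pico, 286 to 441 with V4 and 484 to 734 with TruSeq, with overlapping treatments. Its log2 fold changes of -0.25, -0.02 and -0.06 in Pico, V4 and TruSeq did not pass the test and turned positive in V4 and TruSeq with TMM scaling; the 95% intervals ran from -0.67 to 0.18, -0.58 to 0.54 and -0.42 to 0.31.

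Of the activators, Arntl (chromosome 7, 120350979 to 120457636, plus strand) was the rarest transcript of the 10 in saline livers and rested on few reads. Pico recorded 3, 4 and 16 counts in saline mice UNT.9574, UNT.9575 and UNT.9576 and 73, 20 and 11 in IL-1β mice ILB.9579, ILB.9582 and ILB.9583. V4 recorded 1, 11 and 1 against 103, 81 and 15. TruSeq, with the most reads on Arntl, recorded 24, 21 and 50 against 161, 73 and 37. The IL-1β mean was above the saline mean in every kit, but the treatments overlapped in Pico and TruSeq, where saline mouse UNT.9576 lay above IL-1β mouse ILB.9583. The log2 fold change of Arntl was 2.04 ± 0.83 (SE) with Pico, 4.11 ± 1.17 with V4 and 1.40 ± 0.56 with TruSeq, and limma-voom called V4 only (adjusted p = 0.107, 0.047 and 0.082). The V4 call was lost without mouse ILB.9579, ILB.9582, UNT.9574, UNT.9575 or UNT.9576 (adjusted p from 0.0713 to 0.206) and with a minimum of 10 counts in 3 libraries (adjusted p = 0.144), and a TruSeq call appeared without mouse ILB.9583 (adjusted p = 0.0256). Count models called Arntl in all 3 kits, with adjusted p of 7.6e-05, 0.0034 and 0.017 by the edgeR quasi-likelihood test in Pico, V4 and TruSeq. Clock, the partner of Arntl (chromosome 5, 76639992 to 76733817, minus strand), ranged from 245 to 476 counts with Pico, 61 to 94 with V4 and 316 to 642 with TruSeq, with overlapping treatments in each kit. Its log2 fold changes of 0.24, 0.33 and 0.37 did not pass the limma-voom test (adjusted p = 0.48, 0.61 and 0.23); edgeR called it in Pico (adjusted p = 0.037) and DESeq2 in TruSeq (adjusted p = 0.041).

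The REV-ERB genes of the stabilizing loop showed no call in any kit. Nr1d1 (chromosome 11, 98629246 to 98636647, minus strand) had 239, 216 and 110 counts in saline mice UNT.9574, UNT.9575 and UNT.9576 and 216, 148 and 93 in IL-1β mice ILB.9579, ILB.9582 and ILB.9583 in Pico. TruSeq gave 525, 398 and 245 counts of Nr1d1 against 569, 394 and 234, and V4 gave 403, 350 and 257 against 510, 369 and 144. In the TruSeq series the 3 saline and 3 IL-1β values of Nr1d1 formed almost the same ladder. Its log2 fold changes were -0.28, -0.13 and 0.06 in Pico, V4 and TruSeq, with 95% intervals of -0.92 to 0.36, -1.01 to 0.75 and -0.69 to 0.80. Nr1d2 (chromosome 14, 19036568 to 19071641, minus strand) was more tightly held in the IL-1β mice, at 376 to 416 counts with Pico, 219 to 251 with V4 and 1073 to 1347 with TruSeq, inside saline ranges of 284 to 465 and 180 to 391 in Pico and V4 and across the saline range of 1091 to 1586 in TruSeq. Its log2 fold changes were 0.09, -0.32 and -0.07 (adjusted p = 0.74, 0.60 and 0.75, limma-voom); without saline mouse UNT.9576 the V4 value was -0.69 (adjusted p = 0.04998).

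Dbp, the output factor of the set (chromosome 7, 52960458 to 52965525, plus strand), had 456, 473 and 218 counts in saline mice UNT.9574, UNT.9575 and UNT.9576 and 42, 85 and 66 in IL-1β mice ILB.9579, ILB.9582 and ILB.9583 in Pico. V4 gave 601, 640 and 595 counts of Dbp against 114, 232 and 152, and TruSeq gave 981, 949 and 430 against 152, 179 and 236. Saline mouse UNT.9576 was the lowest of its group in each kit, below the other saline mice by a wide margin in Pico and TruSeq but not in V4, and still above all IL-1β mice. The log2 fold change of Dbp was -2.51 ± 0.36 (SE) with Pico, -1.93 ± 0.27 with V4 and -1.94 ± 0.32 with TruSeq, at limma-voom adjusted p of 0.00011, 0.0013 and 0.0015. Dbp shares 491 exon bases (16.7% of its exons) with Sphk2 on the opposite strand, Nr1d1 263 bases (8.42%) with Thra and Cry2 295 bases (4.67%) with a non-coding RNA gene, so in the unstranded V4 libraries reads of these stretches cannot be assigned to a strand.

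Counted by overlap rather than by the test, 1 clock gene was wholly higher and 3 wholly lower in IL-1β mice with Pico, 2 and 2 with V4, and 1 and 3 with TruSeq. Over all genes 12.6% were wholly higher and 18.6% wholly lower with Pico, 9.09% and 18.6% with V4, and 17.1% and 27.9% with TruSeq. In TruSeq, the kit with the most calls, 3 of 10 wholly lower is close to the share of the whole table. So are 2 of 10 wholly lower in V4 and 1 of 10 wholly higher in Pico. None of these counts is a result about the clock genes as a set. The 5 neutrophil markers summed to 0.971 to 5.14 CPM in saline and 28.9 to 36.5 CPM in IL-1β mice in Pico, with 3 of the 5 in the table; the ranges were 2.07 to 4.58 and 32.7 to 57.8 CPM in V4 (3 of 5) and 3.05 to 5.61 and 37.0 to 75.9 CPM in TruSeq (4 of 5). The 5 hepatocyte markers, all detected, summed to 84271 to 102123 CPM in saline and 62337 to 68744 CPM in IL-1β mice in TruSeq and this sum was also wholly lower in Pico and V4. Of the 5, Tat was called higher in each kit, against 4, 2 and 2 called lower in Pico, V4 and TruSeq. The summed macrophage markers were wholly lower as well in each kit (106 to 176 CPM in saline and 49.0 to 71.6 CPM in IL-1β mice in TruSeq), and the stellate cell sum likewise (210 to 250 CPM and 132 to 175 CPM). The endothelial sum was wholly lower in Pico and TruSeq, with 2 of its 5 markers called higher and 2 lower in Pico and 1 and 3 in TruSeq. Cholangiocyte sums overlapped in each kit, and the lymphocyte sum stayed at or under 4.94 CPM and was wholly lower in TruSeq. These sums are RNA levels and not cell numbers, and the hepatocyte and endothelial markers did not all move together. Whether the markers themselves respond to IL-1β within their cells was not tested. The part of these shifts in the clock gene values was not tested.

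Ratios between 2 clock genes inside a library do not depend on scaling by the library total. With 1 read added they do depend on depth where counts are low, as for Arntl at 1, 11 and 1 counts in the saline mice of V4. Their sizes are therefore not comparable between kits. The log2 ratio of Dbp to Arntl counts, with 1 read added to each, was 4.60 ± 1.32 (SD, n = 3) in saline and 1.28 ± 1.36 in IL-1β mice in TruSeq, 5.70 ± 1.75 and 1.24 ± 1.77 in Pico, and 7.40 ± 1.44 and 1.64 ± 1.56 in V4. The ratio of Per2 to Arntl was 4.71 ± 0.75 and 1.04 ± 1.72 in TruSeq, 5.45 ± 1.18 and 1.36 ± 2.11 in Pico, and 5.46 ± 1.07 and -0.06 ± 2.09 in V4. Both ratios were lower in every IL-1β library than in any saline library of the same kit. Per1 to Per2 was the tightest ratio in the stranded kits. In saline mice it lay between -0.78 and -0.49 in TruSeq and between -0.68 and 0.02 in Pico, and in IL-1β mice between 2.35 and 3.10 in TruSeq and between 2.19 and 2.92 in Pico, so that Per1 exceeded Per2 in read count after IL-1β and not before, apart from a near-equal pair in mouse UNT.9574 in Pico. In V4 the same ratio overlapped, at -1.71 to -0.34 in saline and -0.41 to 3.00 in IL-1β mice. The ratio of Nr1d1 to Arntl was wholly lower in V4, at 4.87 to 7.66 in saline and 2.17 to 3.18 in IL-1β mice (a mean difference of -3.96). It overlapped in Pico and TruSeq, as did that of Cry2 to Cry1 in all 3 kits (a mean difference of 0.71 in TruSeq). These ratios are descriptions without a test.

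**Figure D3:**
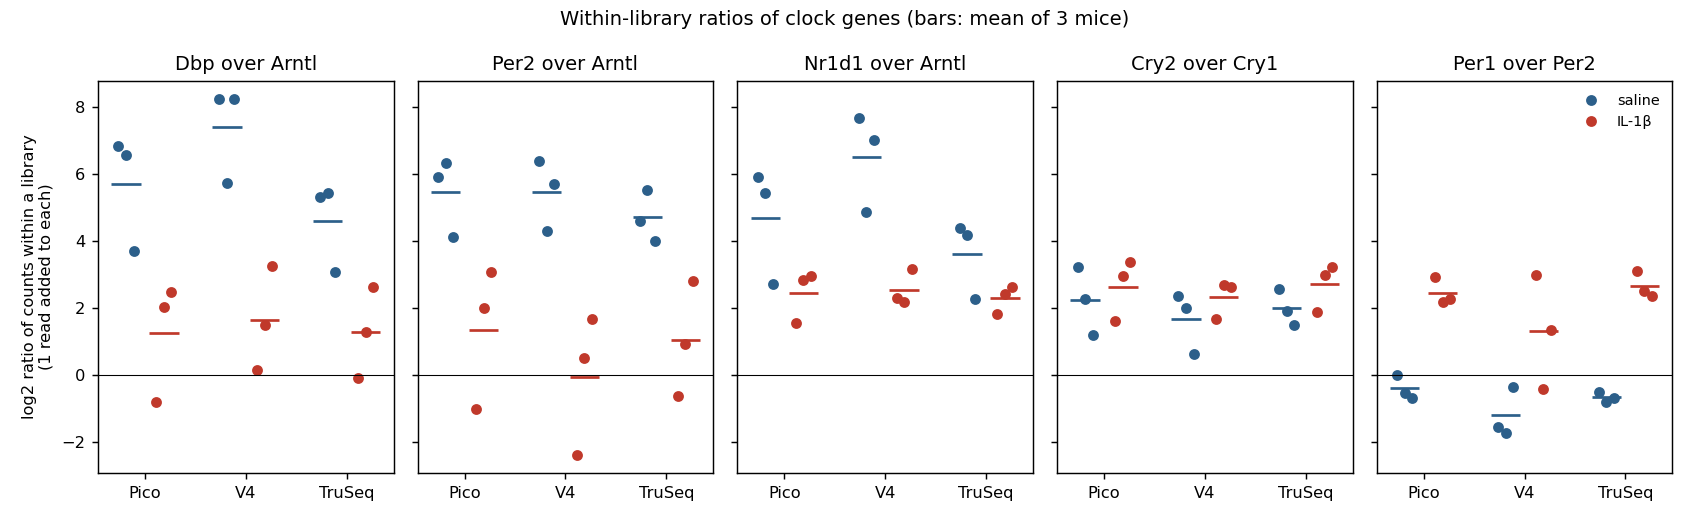
log2 ratio of the counts of 2 clock genes within each library, with 1 read added to each, for saline (blue) and IL-1β mice (red) in the 3 kits; bars are the mean of 3 mice. Dbp over Arntl and Per2 over Arntl are wholly lower in IL-1β mice in each kit, and Per1 over Per2 wholly higher in Pico and TruSeq.

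Per kilobase of exon, Dbp was the most abundant clock transcript and Arntl the least in the saline livers of each kit. In TruSeq the saline mean of CPM per kilobase was 21.0 ± 8.33 (SD, n = 3) for Dbp, 20.3 ± 4.21 for Nr1d2, 10.8 ± 2.59 for Per2, 9.78 ± 3.59 for Nr1d1, 7.97 ± 1.36 for Cry2, 7.07 ± 1.01 for Per1, 5.17 ± 0.50 for Per3, 4.24 ± 1.14 for Cry1, 3.61 ± 0.85 for Clock and 0.85 ± 0.42 for Arntl. Only 3 of the 9 neighbours in this order were clear of each other in all mice, namely Nr1d2 above Per2, Per1 above Per3 and Clock above Arntl. After IL-1β the TruSeq order ran from Nr1d2 at 19.2 ± 2.35 and Per1 at 14.5 ± 4.20 down to Arntl at 2.49 ± 1.75, Per2 at 2.34 ± 1.16 and Per3 at 0.55 ± 0.32, and Dbp took the fifth place at 5.18 ± 1.17. Per3 was then the lowest of the 10 in each kit. The fold from the highest to the lowest gene in saline livers was 24.8 in TruSeq, 49.7 in Pico and 140 in V4. These folds rest on few Arntl counts: without mouse UNT.9575 the V4 fold was 594, and without UNT.9576 the fold was 132 in Pico and 42.6 in TruSeq (leaving out single mice was chosen here after seeing the data). Without UNT.9575, Nr1d2 and not Dbp was the highest in TruSeq.

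For some clock genes the mice of a treatment kept their order from kit to kit. Among the IL-1β mice, ILB.9579 had the highest and ILB.9583 the lowest Arntl in each kit, and Nr1d1 followed the same order of ILB.9579, ILB.9582 and ILB.9583. Per3 ran in the opposite order, from ILB.9583 down to ILB.9579, in each kit, and mouse ILB.9579 also had the lowest Per2, Dbp and Cry2 of the IL-1β mice. Among the saline mice, Nr1d1 and Nr1d2 fell from UNT.9574 through UNT.9575 to UNT.9576 in each kit, and UNT.9576 had the lowest Cry2 and Dbp. In 5 of the 20 combinations of gene and treatment the full order of the 3 mice was the same in all kits, in 7 the highest mouse was the same and in 11 the lowest. The kits measured RNA of the same mice, and these counts were not set against other genes. They therefore do not show a trait of the clock genes. Arntl of the IL-1β mice spanned 2.35, 2.08 and 1.81 units of log2(CPM + 1) in Pico, V4 and TruSeq, and Nr1d1 spanned 1.18, 1.73 and 1.24, whereas Nr1d2 in the same mice spanned 0.15, 0.19 and 0.33. The range of Nr1d1 between mice of a single treatment was thus larger than its difference between treatments.

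**Figure D4:**
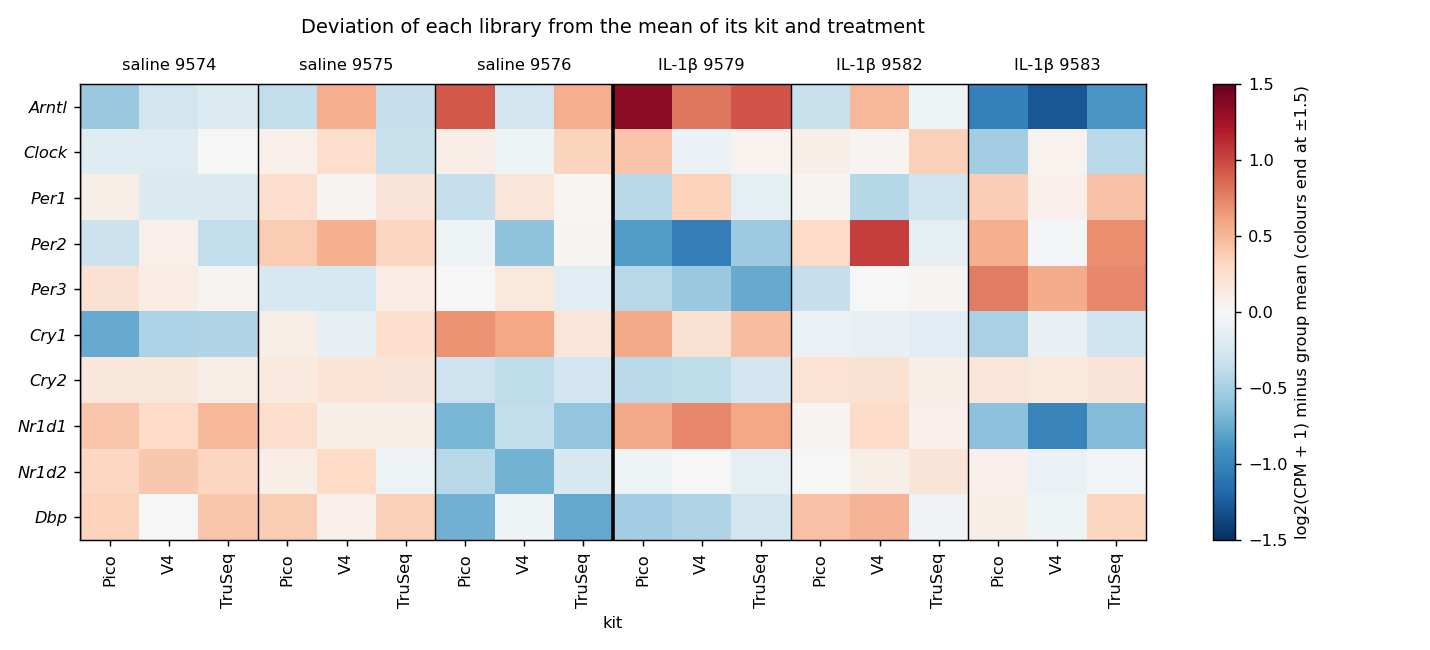
Deviation of log2(CPM + 1) from the mean of its kit and treatment for each clock gene (rows) in the 18 libraries, grouped by mouse with the 3 kits side by side; red is above and blue below the mean. Mouse ILB.9579 is above for Arntl and Nr1d1 and below for Per2 and Per3 in the 3 kits, and mouse ILB.9583 the reverse for Arntl, Nr1d1 and Per3.

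The transcripts most like Nr1d1 over the 18 libraries, after centring each gene within each kit, were Mtus1 (Pearson r = 0.82, Spearman rho = 0.82), Gstm4 (r = 0.81, rho = 0.81) and Elovl3 (r = 0.79, rho = 0.63), out of 8960 genes averaging 20 counts or more in all kits. None of these 3 was called for IL-1β in any kit. Most like Arntl were Tubb2a (r = 0.94, rho = 0.93), Clp1 (r = 0.92, rho = 0.88) and Clpx (r = 0.92, rho = 0.88), of which Tubb2a and Clpx were called higher in each kit and Clp1 in V4 and TruSeq. The values were not centred within treatment, so a treatment difference enters the correlation. The calls of the genes most like Arntl or Nr1d1 are therefore partly built into their choice. The 18 libraries come from 6 mice and share depth within a kit, so the correlations are descriptions only.

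Whether the kits differed in the response of a clock gene was tested by the kit by treatment interaction. Kit stands here for the whole preparation and run. Per the study's methods, the TruSeq experiment came from an earlier study, with shorter reads on another sequencer model. The resampled depth also differed and was lowest in Pico. These differences cannot be told apart from that of the kit itself. In the fit without a mouse block, no gene was called in any of the 3 pairs of kits by limma-voom. The shares were 0.0% of 17207 genes for Pico and TruSeq, 0.0% of 17147 for V4 and TruSeq, and 0.0% of 16395 for Pico and V4. In the same order, 945, 1090 and 900 genes had an unadjusted limma-voom p under 0.05, and edgeR called none. A share of about 0.05 of the genes would fall under that p without any difference between kits. For the clock genes the log2 fold change in Pico minus that in TruSeq lay between -0.57 (Dbp) and 0.65 (Arntl), the smallest adjusted p being 0.938. V4 minus TruSeq lay between -0.25 and 2.71, the latter for Arntl with a 95% interval of -0.20 to 5.62 and an adjusted p of 0.824. With the mouse as a block, which the shared RNA warrants, 1 gene was called between Pico and TruSeq and 0 in the other pairs, and no clock gene was called. In that limma-voom fit the Arntl difference between V4 and TruSeq was 2.67 (interval 0.57 to 4.78, adjusted p = 0.573). The Dbp difference between Pico and TruSeq was -0.53 (interval -1.02 to -0.04, adjusted p = 0.669). The missed calls do not show that the kits respond alike, since the intervals for Arntl span several log2 units.

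The rest of the clock machinery was read from 3 further lists: the core loop (10 of 11 genes in the tables, Rorb in none), 16 modifiers such as kinases and ubiquitin ligases that act on clock proteins, and 10 output genes. Of these 36 genes, 2 were called higher and 10 lower with Pico, 1 and 7 with V4, and 2 and 12 with TruSeq. The shares of all genes were 6.78% and 10.8%, 3.60% and 7.41%, and 12.3% and 21.8%. The median log2 fold change of the 36 was -0.13, -0.24 and -0.12 in Pico, V4 and TruSeq, near that of all genes. Called in the same direction in all 3 kits were 4 of the core loop, 1 modifier and 2 output genes. Of all genes in the 3 tables, 3.05% were called higher and 5.35% lower in every kit. The fall of Dbp was shared by the other PAR bZIP factors. Hlf was lower by 2.39, 2.08 and 2.57 log2 units in Pico, V4 and TruSeq (saline over IL-1β 5.24-fold, 4.23-fold and 5.92-fold), with limma-voom adjusted p of 1.8e-05, 0.0013 and 3.5e-06. Tef was lower 2.65-fold, 2.60-fold and 2.38-fold (adjusted p = 2.7e-05, 0.0049 and 0.00062). Nfil3, the bZIP repressor that competes with them for D-boxes, rose from 102, 49 and 154 counts in saline mice UNT.9574, UNT.9575 and UNT.9576 to 334, 257 and 229 in IL-1β mice ILB.9579, ILB.9582 and ILB.9583 in Pico. In TruSeq Nfil3 went from 282, 175 and 447 to 1205, 885 and 817 counts and in V4 from 329, 267 and 503 to 1475, 1100 and 848. Its fold was 2.99, 3.15 and 3.50 in Pico, V4 and TruSeq, with limma-voom adjusted p of 0.0010, 0.0035 and 0.00089.

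Rora, an activator that works on the same elements as the REV-ERBs, was not called (log2 fold change -0.23, -0.15 and -0.22). Bhlhe40, a further E-box repressor, fell 1.83-fold, 1.86-fold and 1.93-fold (adjusted p = 0.0024, 0.038 and 0.0079). The Bhlhe40 call did not stand without mouse ILB.9582 or ILB.9583 in Pico and TruSeq, without UNT.9576 in TruSeq, and without any mouse but UNT.9574 in V4 (adjusted p from 0.0503 to 0.161), nor with TMM scaling in V4 (adjusted p = 0.0721). The E-box repressor Ciart, named Gm129 in the files, had overlapping counts in each kit, at 166 to 393 in saline and 179 to 335 in IL-1β mice in TruSeq, with log2 fold changes of -0.12, 0.26 and 0.0028 that changed sign with the scaling in Pico. Npas2, the paralogue of Clock, was close to the floor, at 0, 0 and 0 counts in saline and 10, 4 and 0 in IL-1β mice ILB.9579, ILB.9582 and ILB.9583 in Pico, 2, 0 and 1 against 10, 1 and 0 in V4, and 1, 2 and 1 against 8, 1 and 1 in TruSeq, and was not called. Mouse ILB.9579, the highest for Arntl, held the highest Npas2 count in each kit. Bhlhe41, Arntl2 and Timeless, the remaining genes of this list, were not called in any kit.

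Among the modifiers, Usp2, a ubiquitin-specific protease whose transcript cycles in liver, fell 7.32-fold in Pico, 6.29-fold in V4 and 5.79-fold in TruSeq (adjusted p = 0.00021, 0.0088 and 0.00097); DESeq2 did not call it in V4 (adjusted p = 0.0709). The AMPK subunit gene Prkaa2 and the ubiquitin ligase gene Btrc were called lower in Pico and TruSeq, and the remaining modifier calls (Fbxl21, Nono, Ppp1ca and Hdac3) were all lower and in TruSeq alone. Their TruSeq log2 fold changes were -2.52, -0.32, -0.28 and -0.46, beside a median of -0.17 over all genes. Fbxl21 rested on 1 to 3 counts in IL-1β and 13 to 19 in saline mice. Of the output genes, Wee1, the cell cycle kinase gene, fell to a few reads: 103, 156 and 114 counts in saline mice UNT.9574, UNT.9575 and UNT.9576 of TruSeq stood against 2, 4 and 6 in IL-1β mice ILB.9579, ILB.9582 and ILB.9583. Pico gave 96, 93 and 51 against 0, 1 and 14 counts of Wee1, and V4 90, 69 and 94 against 4, 0 and 0. Its adjusted p was 0.00049, 0.00060 and 5.2e-05 in Pico, V4 and TruSeq (limma-voom). Upp2, a uridine phosphorylase gene of liver, fell 8.17-fold, 8.58-fold and 9.34-fold (adjusted p = 3.2e-08, 2.3e-05 and 2.6e-05). Lpin1 was called higher in Pico and TruSeq (1.93-fold and 2.43-fold) although its treatments overlapped, Ppargc1a lower in Pico and V4, and Por lower in Pico; Nampt, Ccrn4l, Alas1, Tspan4 and Avpr1a were not called in any kit.

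**Figure D5:**
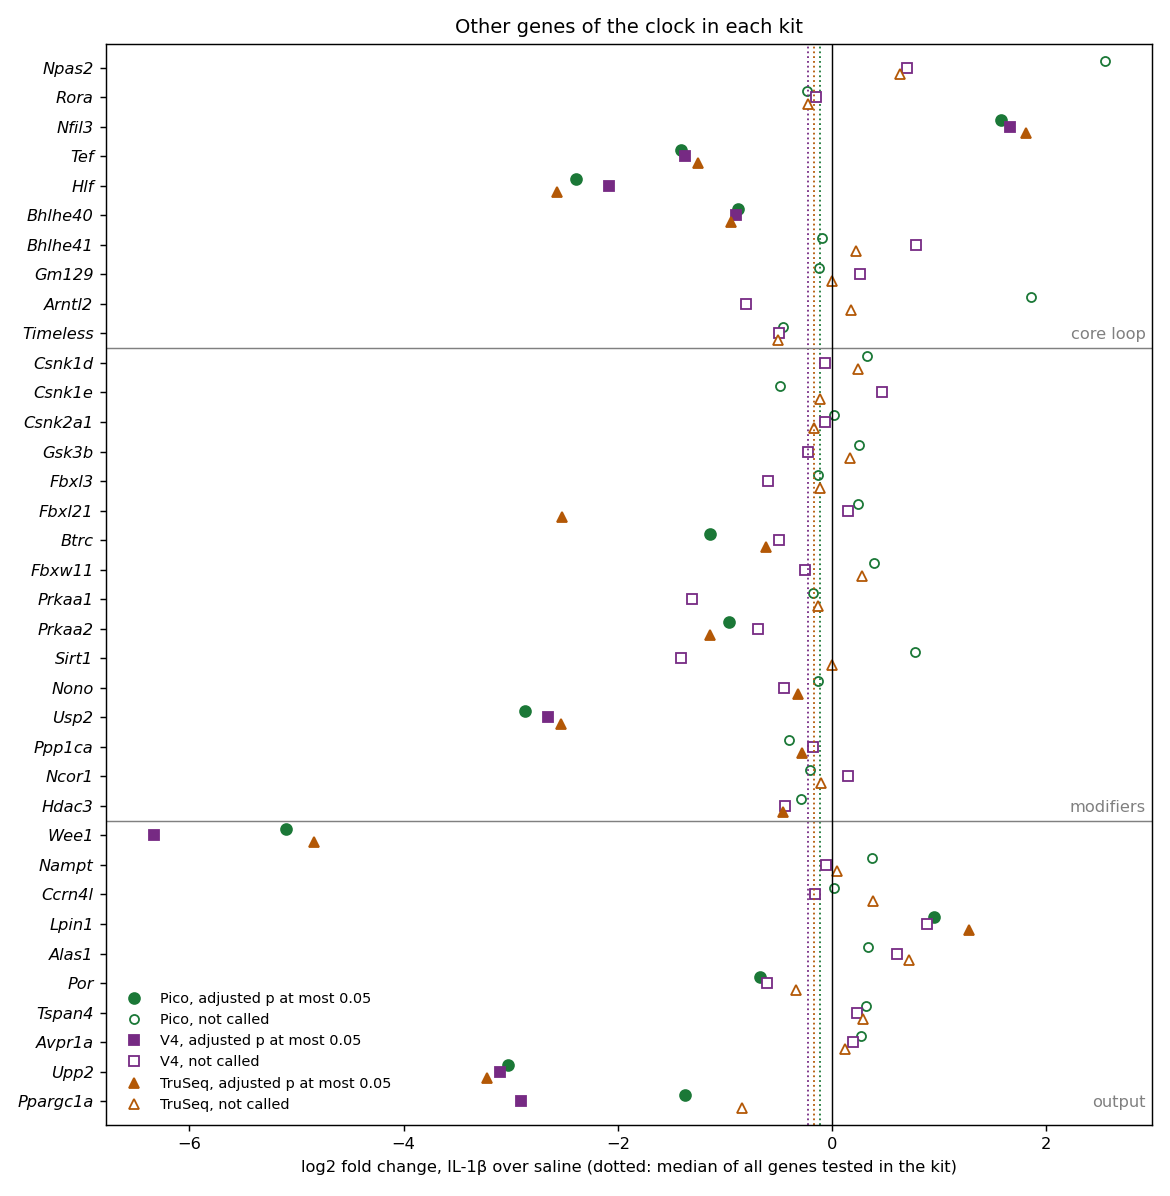
log2 fold change (IL-1β over saline) of the 36 other clock genes in Pico (circles), V4 (squares) and TruSeq (triangles), grouped as core loop, modifiers and output; filled symbols passed an adjusted p of 0.05 and dotted lines mark the median of all genes in each kit. Wee1 and Upp2 lie farthest to the left among the genes called in each kit, and Nfil3 is the gene called higher in all 3.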

How the data were processed

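Liver RNA of 6 mice was sequenced with 3 kits. Per the labels and the study's methods, the authors aligned reads with GSNAP to mm9, removed ribosomal reads, resampled libraries of a kit to equal depth with PORT and deposited whole-number gene counts, sense strand for Pico and TruSeq and both strands for V4; the 3 tables were made separately, so tests stay within a table except for the kit interaction. Reads were 150 bp (Pico, V4) or 125 bp (TruSeq). The Pico preparation was run more than once and the run behind the table is not given in the sources used here.

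From the deposited counts, IL-1β was compared with saline in limma 3.58.1 (voom, library totals, genes above 0 in at least 1 library, Benjamini-Hochberg over all genes, two-sided) in R 4.3.3. Differences between kits were fitted as an interaction without a mouse block. The alternatives were edgeR 4.0.16 and DESeq2 1.42.0, TMM, filters, thinning, leaving out each mouse and the mouse as a block. Code was tested on simulated counts. Replicate numbers mark the mouse, and the labels tie the same animal to the 3 kits; over 8960 genes, deviations from group means correlated at 0.08 to 0.46 for the same mouse in different kits and at -0.36 to -0.03 for different mice. Centring on a group mean pushes the values for different mice down when those for the same mouse are positive, so the ranges are not independent of each other. No pair of libraries agreed within sampling noise. Levels were CPM, and per kilobase of union exons (GENCODE vM1). Sequences came from RefSeq. Shown genes were the 10 members, other clock-list genes called alike in all 3 kits, Npas2, Nfil3, Tef, Hlf, Bhlhe40 and Ciart, and the 3 genes most like Nr1d1 and Arntl; values of Prkaa2, Btrc, Lpin1 and other genes called in fewer kits were named after they were seen. 1 further core loop gene is not reported here and enters none of the counts. The members and lists were chosen with earlier results of these data known.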

Additional observations from a re-analysis of the deposited data

How the results depend on the processing

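The lower calls of Per3 and Dbp in each kit, of Per2 in Pico and TruSeq, and the higher call of Per1 in TruSeq stood under all 11 alternatives per kit that could change them (5 other settings and 6 mice left out); fitting without a filter was the same fit, since the tables hold no gene at 0 throughout. The number of clock genes called higher, 1 in each kit, was 3, 1 and 2 in Pico, V4 and TruSeq with edgeR, 2, 2 and 3 with DESeq2, and 0 in V4 with a minimum of 10 counts in 3 libraries; leaving out mice gave 0 to 1 in Pico and V4 and 1 to 2 in TruSeq. Leaving out mice gave 741 to 971 genes higher and 1024 to 1632 lower in Pico and 341 to 589 higher and 567 to 1504 lower in V4. DESeq2 called 1127 genes higher in V4 and 2776 lower in TruSeq, and TMM scaling left 874 lower in V4. TMM also shifted the share of calls that were higher for Pico from 38.6% to 52.9%, for V4 from 32.7% to 49.7% and for TruSeq from 36.0% to 50.9%.

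Some log2 fold changes that were not called changed sign. With edgeR, DESeq2 and limma with TMM, Cry2 was 0.14, 0.15 and 0.15 in V4 and 0.10, 0.10 and 0.10 in TruSeq, Nr1d1 was 0.16, 0.17 and 0.053 in V4, Nr1d2 was 0.074, 0.074 and 0.087 in TruSeq, and Ciart (Gm129) was 0.070, 0.065 and 0.0085 in Pico. Thinning to the smallest library gave -0.022 for Nr1d1 in TruSeq. Over the mice left out, Nr1d1 ran for Pico from -0.63 to 0.032, for V4 from -0.51 to 0.40 and for TruSeq from -0.25 to 0.40, Nr1d2 from -0.12 to 0.25 in Pico and -0.19 to 0.090 in TruSeq, Cry2 from -0.22 to 0.18 in V4 and -0.20 to 0.092 in TruSeq, Ciart from -0.52 to 0.31, -0.016 to 0.58 and -0.27 to 0.36 in Pico, V4 and TruSeq, and Npas2 from -0.50 to 1.69 in V4 and -0.20 to 1.05 in TruSeq. The cause of these changes was not tested.

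With the mouse as replicate block, 1 gene differed in its response between Pico and TruSeq and 0 in the other pairs of kits, and no clock gene was called; the block changed no other call. Over the mice left out, such calls ranged from 0 to 57 between V4 and TruSeq and from 0 to 39 between Pico and V4, the highest of each without saline mouse UNT.9576, and none was one of the 10 clock genes. With 20 reads added in place of 1, the IL-1β minus saline difference of the V4 log2 ratios went from -5.76 to -3.48 for Dbp over Arntl, from -5.53 to -2.99 for Per2 over Arntl and from -3.96 to -1.78 for Nr1d1 over Arntl. With the longest transcript in place of union exons, the fold from the highest to the lowest clock gene in saline livers became 81.9 in Pico, 40.8 in TruSeq and 230.1 in V4. By Spearman correlation 2 of the 3 genes most like Nr1d1 and 1 of the 3 most like Arntl were kept. Arntl, at 1 to 16 counts in the saline libraries of Pico and V4, is the member whose depth limits its values most.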
